A study of Rattus norvegicus with 25 samples.

Results

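This report describes 46 listed interferon-induced genes in the esophageal epithelium of rats given an esophageal carcinogen, with or without tocopherols. The members were taken from a list by gene symbol, reached through the RefSeq accession of each array probe, and a probe had to be well above background on at least 5 of 25 arrays. Of the 46, 43 had a named probe on the array (49 probes, of which 47 met the detection rule), and 41 could be tested among 12343 genes tested in all. Herc6, Zbp1 and Xaf1 had no named probe. Probes of Ifit1 and Dtx3l were well above background on 0 arrays, which leaves a bound and no difference. Nearest to the detection limit inside the list were Oasl on 17 arrays and Cmpk2 on 24, and the probes used for the other 39 members were above background on all 25.

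The animals were male F344 rats, an inbred strain, in 5 groups of 5, with 1 array per rat. The Control group had the normal diet without carcinogen, and the NMBA group had the normal diet with N-nitrosomethylbenzylamine (NMBA), a nitrosamine that causes esophageal tumours in rats. The alpha, delta and gamma-enriched groups received NMBA together with alpha-tocopherol, delta-tocopherol or a gamma-tocopherol-enriched preparation, which are forms of vitamin E that differ in the methyl groups of the chromanol ring. Ages, doses, routes and treatment times are not stated in the labels, and no tocopherol was given without NMBA.

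Interferons are secreted proteins that cells release on sensing foreign or misplaced nucleic acid, or, for the type made by T and NK cells, on immune activation. Their receptors act through Janus kinases, and the transcription factors these activate, Stat2 with Irf9 among them, bind interferon-stimulated response elements (ISRE) or gamma-activated sites (GAS). The genes so induced block viral replication, sense nucleic acids and supply peptides to class I molecules of the major histocompatibility complex, and squamous epithelia can express many of them.

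Promoter sequences are shown first, because interferon-activated factors are known to bind such letters near the start of these genes. Of the 7 members called in NMBA against Control below, 4 carry ISRE letters in their promoter windows (Oas1a, Irf7, Psmb8 and Tap1). Psmb9 carries none in its window, and Isg15 and Dhx58 have no entry in the promoter table. The bases are the 250 before the annotated gene start, from RefSeq on the GRCr8 assembly, for 4 members that were higher in NMBA rats. They lie at chr12:41330216-41330465 on the plus strand (Oas1a), chr1:205800024-205800273 on the minus strand (Irf7), chr20:4668544-4668793 on the minus strand (Tap1) and chr20:4668750-4668999 on the plus strand (Psmb9). Capitals mark ISRE letters, searched as GAAA, any 2 bases and GAAA again, on either strand, and the Psmb9 stretch holds none.
Oas1a: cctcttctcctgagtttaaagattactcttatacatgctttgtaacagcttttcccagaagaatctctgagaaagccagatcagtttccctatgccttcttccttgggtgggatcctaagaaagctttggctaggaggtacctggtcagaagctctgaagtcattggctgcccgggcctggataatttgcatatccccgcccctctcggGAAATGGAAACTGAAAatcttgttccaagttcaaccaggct
Irf7: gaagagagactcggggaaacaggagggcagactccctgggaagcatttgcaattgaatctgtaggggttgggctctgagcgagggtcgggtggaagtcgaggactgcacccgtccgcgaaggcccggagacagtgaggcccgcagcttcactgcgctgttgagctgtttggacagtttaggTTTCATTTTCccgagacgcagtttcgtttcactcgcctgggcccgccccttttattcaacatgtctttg
Tap1: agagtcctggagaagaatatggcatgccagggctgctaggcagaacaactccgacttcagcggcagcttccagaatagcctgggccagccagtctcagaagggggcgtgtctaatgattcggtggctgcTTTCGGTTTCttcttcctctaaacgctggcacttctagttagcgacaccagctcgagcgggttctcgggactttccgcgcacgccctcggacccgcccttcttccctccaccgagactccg
Psmb9: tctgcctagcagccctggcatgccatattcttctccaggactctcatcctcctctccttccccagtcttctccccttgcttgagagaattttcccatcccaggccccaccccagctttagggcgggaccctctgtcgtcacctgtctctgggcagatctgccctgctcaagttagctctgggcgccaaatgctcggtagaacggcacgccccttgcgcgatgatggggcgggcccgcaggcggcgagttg
Tap1 and Psmb9 are divergent neighbours, and their 300-base windows overlap by 44 bases. The Tap1 match begins at −121, between the gene starts of this pair and outside the Psmb9 window. Shorter stretches around ISRE letters are given for 6 further members, to show how near the gene start the letters lie. For Psmb8 (chr20:4657016-4657045, minus strand) the match begins at position −4 relative to the gene start. For Gbp5 (chr2:233910933-233910962, plus strand) it begins at −56, for Gbp2 (chr2:234005686-234005715, plus strand) at −31 and for Lgals3bp (chr10:104127879-104127908, minus strand) at −50. For Rsad2 (chr6:48788248-48788277, minus strand) it begins at −147, and for Bst2 (chr16:18255073-18255108, minus strand) a pair of overlapping matches begins at −131 and −125.
Psmb8: gtgctgtggcTTTCGCTTTCacttccttgt
Gbp5: acttgtgtagTTTCAATTTCagtttagagg
Gbp2: agttttttagTTTCACTTTCattgtcttaa
Lgals3bp: gtgttttctgGAAATCGAAActagactagg
Rsad2: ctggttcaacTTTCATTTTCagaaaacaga
Bst2: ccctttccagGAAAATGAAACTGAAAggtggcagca

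Of the 46 members, 37 had a 300-base window in the promoter table, reaching from 250 bases before to 50 bases after the gene start. No entry was found for Isg15, Oas2, Ifit1, Ifit2, Mx2, Usp18, Dhx58, Zbp1 and Adar. ISRE letters were present in 22 of 37 member windows (59.5%) and in 1312 of 33469 windows of the whole table (3.92%). GAS letters, TTC, any 3 bases and GAA, were present in 11 member windows (29.7%) and in 2970 of all windows (8.87%). Both motifs occurred in 6 member windows, and 6 had more than 1 ISRE match, counting overlapping matches separately. Of 28 ISRE matches, 25 began within 150 bases before the start. Among tested members, the 20 with ISRE letters had a median NMBA minus Control difference of 0.64 log2 units and the 14 with a window but no such letters 0.61.

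**Figure D1:**
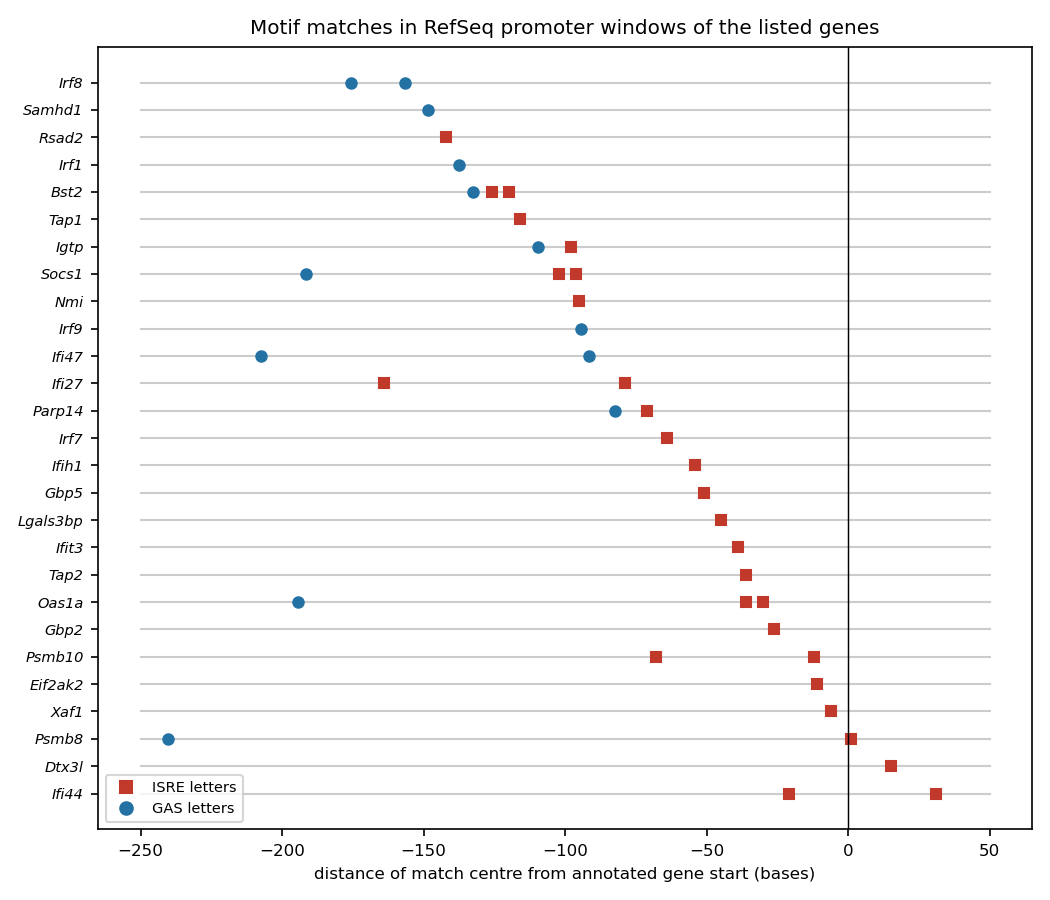
Matches to ISRE letters (red squares) and GAS letters (blue circles) in the promoter windows of the listed genes that hold at least 1 match, plotted by the distance of the match centre from the annotated gene start in bases. Grey lines span each window, and most ISRE matches lie within 150 bases before the start.

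Between 70.6% and 79.8% of spots were well above background on the 25 arrays, with the lowest shares in NMBA rat 3 (70.6%) and NMBA rat 2 (70.9%), and 0 spots were saturated. Of 10 squamous epithelium markers 8 could be tested, and each was above background on all 25 arrays, among them Krt5, Krt14, Krt4 and Krt13. The arrays sat on 4 slides that do not cross the groups evenly. Slide 1 held the alpha group and delta rats 1 to 3, slide 2 delta rats 4 and 5, the gamma-enriched group and Control rat 1, slide 3 the other 4 Control rats with NMBA rats 1 to 4, and slide 4 NMBA rat 5 alone. No slide held an NMBA rat beside a tocopherol rat.

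In NMBA rats, 7 of the 41 members rose against Control and 0 fell at an adjusted p under 0.05 by limma, where 1.3% of all genes were called higher and 0.243% lower. These were Isg15, Oas1a, Psmb8, Psmb9, Irf7, Tap1 and Dhx58, with increases of 1.05 to 2.37 log2 units. They comprise 3 of 5 antigen-processing genes, 2 of 8 nucleic acid sensors, 1 of 13 antiviral effectors and 1 of 7 signalling and transcription genes that could be tested. The direction extended beyond the called members: 40 of 41 had a higher mean in NMBA rats, with a median difference of 0.63 log2 units, beside 57.4% of all genes and a median of 0.05. Every NMBA rat lay above every Control rat in 12 members, against 2.5% of all genes. Values are log2 signals minus the 75th percentile of the array, differences are of group means with n = 5 rats each, and ± gives limma's moderated SE. Levels are comparable between rats for 1 gene, not between genes. In whole epithelium, a change in the number of cells of a type and a change in RNA per cell cannot be told apart.

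Isg15, an antiviral effector, encodes a ubiquitin-like protein that is attached to other proteins after interferon exposure. Its log2 level was −0.92, −1.63, −1.14, −0.61 and −0.79 in Control rats 1 to 5. In the NMBA group it was 1.78, 1.40, 1.05, 0.95 and 1.57, again in the order of the rat numbers, as in all such lists. All NMBA rats lay well above all Control rats. Isg15 rose by 2.37 ± 0.30 log2 units, or 5.17-fold (adjusted p = 7.82e-05 by limma). It was the member with the largest difference.

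Among the nucleic acid sensors, Oas1a makes short oligoadenylates that activate RNase L when double-stranded RNA is present. In Control rats its level was −3.42, −3.32, −3.80, −3.14 and −3.99, and in NMBA rats −1.07, −1.77, −0.90, −1.62 and −1.32. The groups were separated by more than the range of either. Oas1a rose by 2.20 ± 0.37, or 4.60-fold (adjusted p = 0.00211 by limma). It has close paralogs, and whether its probe also binds them was not tested. Dhx58, a helicase that tunes the response of RNA sensors, stood at −3.64, −4.19, −3.71, −3.41 and −3.80 in Control and −2.63, −2.76, −2.36, −2.90 and −2.84 in NMBA rats. Here too the groups did not overlap, and the rise was 1.05 ± 0.21 (adjusted p = 0.00724 by limma). The RNA-editing enzyme Adar differed by 0.68 ± 0.20 without overlap of the groups, but its adjusted p by limma was 0.0901. The other sensors, Ifih1, Trim25, Eif2ak2 (the kinase that halts translation), Oas2 and Oasl, differed by 0.30 to 0.58 and did not pass.

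Irf7 encodes a transcription factor that amplifies interferon production. Control rats had levels of −1.49, −2.04, −1.71, −1.60 and −1.63, and NMBA rats 0.04, −0.45, −0.76, −0.64 and −0.21. The lowest NMBA rat lay above the highest Control rat. Irf7 rose by 1.29 ± 0.20, or 2.45-fold (adjusted p = 0.00130 by limma). The other signalling members did not pass: Irf1, an early interferon-responsive factor, differed by 0.92 ± 0.30 (adjusted p = 0.165), and Irf8, a factor of myeloid and lymphoid cells, by 0.81 ± 0.23 (adjusted p = 0.0755). Irf9 and Stat2, partners in the complex that binds ISRE letters, differed by 0.63 and 0.60 ± 0.18 (adjusted p for Stat2 = 0.105 by limma). Nmi differed by 0.32 and Ifi35 by 0.03. Of the inhibitors, Usp18, which removes Isg15 from proteins and dampens receptor signalling, differed by 1.12 ± 0.31 with no overlap of the groups (adjusted p = 0.0759). Socs1, which blocks Janus kinases, differed by 0.52 ± 0.20 (adjusted p = 0.257 by limma).

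All 5 antigen-processing members were higher on average in NMBA rats, with a median of 1.17 log2 units. Psmb8 and Psmb9 encode catalytic subunits of the immunoproteasome, and Tap1 encodes a chain of the transporter that carries peptides into the endoplasmic reticulum. For Psmb8 the levels were −1.05, −1.90, −1.34, −1.15 and −1.41 in Control rats and 0.23, −0.39, 0.42, −0.45 and 0.19 in NMBA rats. For Psmb9 they were 0.40, 0.11, 0.69, 0.33 and 0.44 and 2.30, 1.55, 1.65, 0.88 and 2.17. Tap1 stood at −3.24, −3.49, −2.80, −2.99 and −2.85 in Control and −1.50, −1.68, −1.63, −2.63 and −2.09 in NMBA rats. NMBA rat 4 was the lowest NMBA rat for all of Psmb8, Psmb9 and Tap1, and it lay just above the highest Control rat for Psmb9 and Tap1. Psmb8 rose by 1.37 ± 0.29 (adjusted p = 0.0135), Psmb9 by 1.31 ± 0.28 (adjusted p = 0.0162) and Tap1 by 1.17 ± 0.21 (adjusted p = 0.00482 by limma). The call of Psmb9 was lost when NMBA rat 1 was left out (1.17, adjusted p = 0.0603 by limma), and likewise for NMBA rat 5 (1.20, adjusted p = 0.0633). The partner chain Tap2 and the third immunoproteasome subunit Psmb10 differed by 0.48 and 0.47 and did not pass.

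The remaining effectors did not pass in NMBA rats. Rsad2, the radical enzyme viperin, stood at −4.95, −5.30, −3.77, −4.42 and −4.49 in Control and −3.06, −3.22, −3.53, −3.12 and −3.01 in NMBA rats. The groups did not overlap, yet the difference of 1.40 ± 0.40 had an adjusted p of 0.0829 by limma. That SE draws on the spread in all 5 groups. The SDs of Rsad2 were 0.58 in Control, 0.21 in NMBA, 0.49 in alpha, 0.34 in delta and 1.22 in gamma-enriched rats. Lgals3bp, a secreted galectin-binding glycoprotein, differed by 0.88 ± 0.26 (adjusted p = 0.0975), and Bst2, which tethers virus particles to the cell surface, by 0.52 ± 0.17 (adjusted p = 0.146), both without overlap. Ifit3 and Mx1, which act on viral RNA and nucleocapsids, differed by 0.81 and 0.73 with overlapping groups. Values near 0 were found for Mx2 (0.15 ± 0.18) and Ifit2 (−0.08 ± 0.25), the only member with a lower mean in NMBA rats. Ifi27, Ifi44, Cmpk2, Samhd1 and Sp100 differed by 0.22 to 0.38.

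Interferon-induced GTPases attack vacuoles and membranes of intracellular microbes. Gbp5 stood at −3.31, −2.65, −1.95, −2.93 and −2.62 in Control and −0.45, −1.05, −1.41, −2.44 and −1.23 in NMBA rats. NMBA rat 4 fell inside the Control range, and the difference of 1.37 ± 0.41 did not pass (adjusted p = 0.105 by limma). Ifi47 differed by 1.03 ± 0.37, Gbp2 by 0.69 ± 0.28 (adjusted p = 0.290) and Igtp by 0.67. Igtp had a second probe that gave 1.60 ± 0.40, more than the probe used, and Irf1 had one that gave 0.30 against 0.92. The ADP-ribosyltransferases Parp9 and Parp14 differed by 0.71 ± 0.22 (adjusted p = 0.119) and 0.60 and did not pass.

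**Figure D2:**
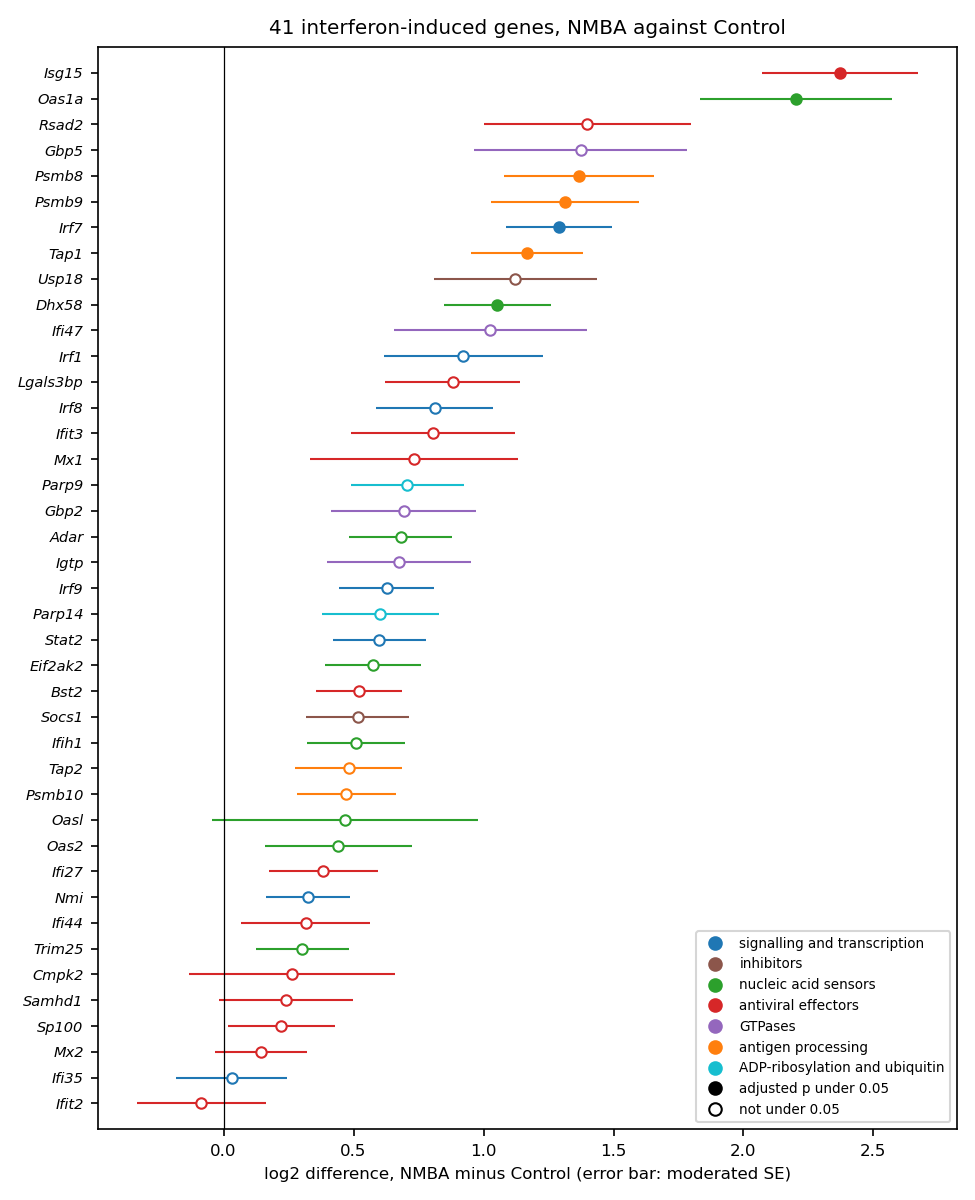
Difference of group means, NMBA minus Control, in log2 units for each of the 41 tested members, coloured by role, with limma's moderated SE as error bars (5 rats per group). Filled points have an adjusted p under 0.05; Isg15 and Oas1a stand apart and Ifit2 is the only point below 0.

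The slide can be set apart in this comparison, because slide 3 held both groups. With slide as a fixed block, the differences of the 7 members were 2.34 (Isg15), 2.22 (Oas1a), 1.40 (Psmb8), 1.30 (Irf7), 1.20 (Psmb9), 1.17 (Tap1) and 1.12 (Dhx58), and Psmb9 no longer passed (adjusted p = 0.102 by limma). The 4 Control and 4 NMBA rats of slide 3 alone gave the same differences, with 3 members called, namely Isg15, Oas1a and Irf7. Over all genes 31 were called there. In that slide all 41 members had a positive difference. These rats are the same as those of the full comparison, so this is no second sample.

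Rats of the NMBA group differed among themselves across many members at once. A score for each rat was taken as the mean over 41 members of the log2 level minus that member's mean over 25 arrays. It was 0.88, 0.56, 0.51, 0.18 and 0.63 in NMBA rats 1 to 5 and between −0.30 and −0.04 in Control rats. The score ran from −0.49 to 0.11 in alpha, −0.30 to 0.35 in delta and −0.60 to 0.11 in gamma-enriched rats. NMBA rat 1 was the highest NMBA rat in 23 of 41 members, and NMBA rat 4 the lowest in 27. In the other groups, delta rat 1 was highest in 30 members, and alpha rat 4 and gamma-enriched rat 3 were each lowest in 24. After removing group means, the 820 pairs of members had a median correlation of 0.29 over 25 rats, and 77% were positive. Such correlations share the arrays, their scaling and their cell content, and they serve as a description.

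T and NK cell markers moved along with the members. Of 14 listed, 13 could be tested, and 8 of 13 rose in NMBA rats, beside 1.3% of all genes called higher. The median difference over the list was 1.45 log2 units. Cd3e, a chain of the T cell receptor complex, rose by 2.11 ± 0.43, the cytotoxic protease Gzmb by 2.34 ± 0.45 and Klrb1a, an NK cell receptor, by 1.39 ± 0.24 (adjusted p = 0.00307 by limma). Cd4 (0.15 ± 0.40) and Cd8a (0.25 ± 0.41) did not pass. Cd3d, Cd3e, Cd3g and Cd2 were above background on all 25 arrays, while Cd8b was so on 14 and Cd27 on 13. The mean marker score ran from −0.69 to 0.10 in Control rats and from 0.17 to 1.65 in NMBA rats, and NMBA rat 4, lowest in the members' score, was also lowest here. Macrophage and monocyte markers (7 tested) and squamous epithelium markers (8 tested) had 0 calls in this comparison, and the median macrophage marker differed by −0.26. All 8 squamous markers had a higher mean in NMBA rats, with a median difference of 0.23. The dendritic cell markers tested, Cd74 and Clec9a, differed by 0.68 and 2.04 without passing (adjusted p = 0.0600 and 0.131 by limma), and their score ran from −0.89 to 0.47 in Control rats and from 0.22 to 1.39 in NMBA rats. Markers of B cells (2 tested), neutrophils (3), fibroblasts (6), endothelium (3) and muscle (5) had 0 calls, with medians of 0.34, 0.13, −0.45, −0.16 and −0.19. The part of cell content in the members' differences was not tested.

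**Figure D3:**
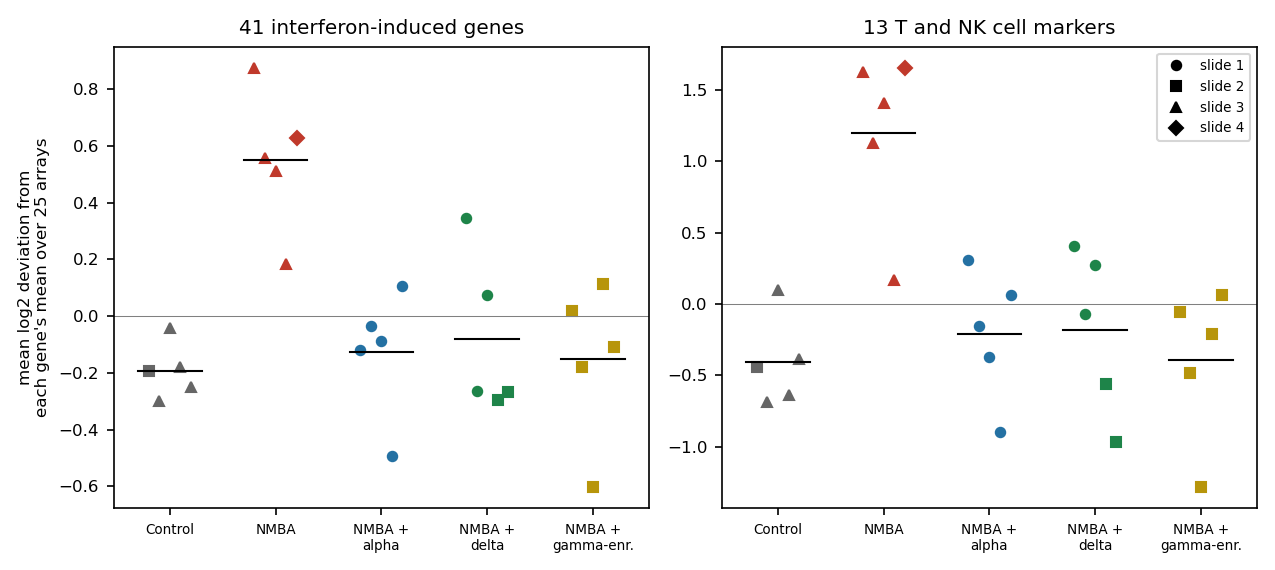
Mean log2 deviation of 41 interferon-induced genes (left) and of 13 T and NK cell markers (right) from each gene's mean over 25 arrays, with 1 point per rat, the bar at the group mean (5 rats) and point shape giving the slide. In both panels NMBA rats lie above the other groups' means, and NMBA rat 4 is the lowest of its group. Delta rat 1 lies above NMBA rat 4 in both panels, as do alpha rat 1 and delta rat 3 in the right panel.

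Other genes of the pathway, outside the 46, were read from a fixed list. Of 13 interferon ligands only Ifnb1 could be tested, at 0.36 log2 units in NMBA against Control without passing, and its probe was above background on 4 Control and 2 NMBA arrays. Ifng, the type made by T and NK cells, was above background on 3 arrays, 2 of them NMBA and 1 gamma-enriched. Ifna2 was so on 0 arrays and Ifna4, Ifna5 and Ifnk on 1 each, so ligand levels are mostly bounds. The 6 tested receptors and kinases had 0 calls, their differences lying between −0.09 and 0.28. Neither the 9 sensors and adaptors nor the 5 inhibitors tested held a call. Of 21 other interferon-induced genes tested, only the GTPase Irgm rose, by 0.85 ± 0.17 (adjusted p = 0.00749 by limma), and their median difference was 0.12. Over all genes 1.3% were called higher.

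The comparisons of each tocopherol group with NMBA ask how the carcinogen-exposed tissue differed when a tocopherol was given. They share the 5 NMBA rats, so the comparisons are not independent, and a high NMBA rat moves them all. In the alpha group 12 of 41 members fell against NMBA, beside 2.45% of all genes called lower. In the delta group 7 fell, beside 2.02%, and in the gamma-enriched group 16 fell, beside 7.35%. Rises among members numbered 0 in each, beside 1.26%, 0.47% and 1.59% of all genes called higher. The median member differed by −0.70, −0.65 and −0.66 log2 units in alpha, delta and gamma-enriched, beside −0.03, −0.05 and −0.10 over all genes, and 40, 39 and 39 of 41 had a lower mean than in NMBA rats. Groups lay apart, with every tocopherol rat below every NMBA rat, in 9, 7 and 9 members, beside 2.97%, 4% and 5.13% of all genes.

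Isg15 fell in each group. Its levels were −0.74, −0.82, −0.18, −0.03 and −0.47 in alpha rats 1 to 5, 0.77, 0.03, 0.21, −0.47 and −0.18 in delta rats and 0.73, −0.75, −1.0, 0.64 and −0.09 in gamma-enriched rats. All tocopherol rats lay below the lowest NMBA rat, and several still lay above the highest Control rat. The differences from NMBA were −1.80 (adjusted p = 0.00339), −1.28 (0.0297) and −1.45 (0.00554 by limma), each ± 0.30. Rsad2, at −5.32, −4.72, −4.56, −5.49 and −4.35 in alpha rats, fell by 1.70 ± 0.40 there (adjusted p = 0.0205 by limma). Delta rats stood at −3.70, −4.48, −4.37, −4.31 and −3.90 and gamma-enriched rats at −4.04, −4.69, −5.82, −2.45 and −4.14. Gamma-enriched rat 4 exceeded every NMBA rat, and Rsad2 differed by −0.96 in delta and −1.04 in gamma-enriched without passing.

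The transcription factors Irf7 and Stat2 also fell in each group, and so did Irf1 by the probe used. Irf7 stood at −1.62, −1.74, −1.32, −1.43 and −1.28 in alpha, −0.89, −1.77, −1.04, −1.78 and −1.64 in delta and −1.25, −1.66, −1.95, −0.91 and −1.64 in gamma-enriched rats. These values lay below every NMBA rat, and the differences were −1.07 (adjusted p = 0.00661), −1.02 (0.0192) and −1.08 (0.00409 by limma). Irf1 in NMBA rats was 0.91, 0.68, 0.42, −0.23 and 0.82, and in Control rats −0.68, −0.64, 0.29, −0.66 and −0.31. It was −0.50, −0.34, −0.95, −1.98 and −0.03 in alpha, −0.10, −0.92, −0.63, −0.54 and −0.90 in delta and −0.84, −1.34, −1.42, −0.44 and −0.54 in gamma-enriched rats. NMBA rat 4 overlapped the alpha and delta rats. The differences for Irf1 were −1.28 (adjusted p = 0.0213), −1.14 (0.0476) and −1.43 (0.00670 by limma). These calls rest on the brighter of its probes. The second Irf1 probe, above background on all 25 arrays, gave −0.84, −0.64 and −0.76 and did not pass (adjusted p = 0.129, 0.244 and 0.134 by limma over all kept probes).

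Stat2 had levels of 0.07, 0.19, 0.45, 0.53 and 0.28 in Control and 1.24, 0.91, 0.99, 0.52 and 0.85 in NMBA rats. In alpha rats they were −0.01, 0.36, 0.39, −0.05 and −0.59, in delta rats −0.43, 0.07, 0.02, 0.37 and 0.07 and in gamma-enriched rats 0.32, −0.16, 0.35, 0.42 and 0.26. Every tocopherol rat lay below every NMBA rat, and their levels reached from below the Control range into it. Stat2 fell by 0.88 (adjusted p = 0.00979), 0.89 (0.0192) and 0.66 log2 units. Dhx58, the sensor, stood at −4.00, −3.84, −3.33, −3.56 and −3.35 in alpha, −3.37, −3.39, −3.27, −3.87 and −3.89 in delta and −2.96, −3.46, −4.14, −2.96 and −3.45 in gamma-enriched rats, and it fell by 0.92, 0.86 and 0.70 (adjusted p = 0.0160, 0.0308 and 0.0367 by limma). Oas1a stood at −2.99, −3.02, −1.82, −2.0 and −2.82 in alpha, −2.30, −2.53, −1.52, −3.66 and −2.94 in delta and −1.28, −2.01, −3.49, −2.71 and −2.61 in gamma-enriched rats. Its values lay mostly between the Control and NMBA ranges, and the differences from NMBA of −1.20, −1.25 and −1.09 did not pass (adjusted p = 0.0693, 0.0614 and 0.0649 by limma).

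Antigen-processing genes were lower on average in each tocopherol group, and all 5 passed in the gamma-enriched group. Psmb8 stood at −0.92, −1.30, −1.37, −2.01 and −0.80 in alpha, −0.96, −0.98, −0.68, −1.98 and −1.72 in delta and −1.25, −1.32, −2.60, −1.30 and −1.28 in gamma-enriched rats. No tocopherol rat reached the lowest NMBA rat, and Psmb8 fell by 1.28 (adjusted p = 0.0163), 1.26 (0.0297) and 1.55 log2 units (0.00397 by limma). Psmb9 stood at 1.35, 1.16, 0.68, −0.13 and 1.05 in alpha, 1.30, 0.75, 0.74, 0.40 and 0.21 in delta and 0.67, −0.19, −0.33, 0.65 and 0.34 in gamma-enriched rats. It fell in the gamma-enriched group by 1.48 (adjusted p = 0.00416), without overlap with NMBA rats, and differences of −0.89 and −1.03 in alpha and delta did not pass (adjusted p = 0.0828 and 0.0531 by limma). Tap1 stood at −3.33, −2.55, −2.35, −2.83 and −2.74 in alpha, −2.02, −2.76, −2.39, −2.69 and −2.76 in delta and −2.54, −3.00, −3.13, −2.62 and −2.82 in gamma-enriched rats. NMBA rat 4 overlapped all of these groups. Tap1 fell by 0.85 in alpha (adjusted p = 0.0297) and 0.91 in gamma-enriched (0.0110), and stood at −0.61 in delta without passing (0.103 by limma). Tap2 and Psmb10 fell by 0.66 and 0.63 in the gamma-enriched group and did not pass in the others.

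Gbp5 had the largest difference of any tested member in the gamma-enriched group. It stood at −1.86, −1.80, −2.19, −3.81 and −1.63 in alpha, −1.46, −2.74, −2.77, −2.27 and −2.79 in delta and −3.00, −3.38, −4.15, −2.39 and −2.77 in gamma-enriched rats. Only gamma-enriched rat 4 overlapped with NMBA rats, of which rat 4 was the lowest. Gbp5 fell by 1.82 ± 0.41 (adjusted p = 0.00873 by limma), while a second probe gave −1.19 ± 0.40 and did not pass (adjusted p = 0.0653 by limma over all kept probes). Gbp2 in Control rats was −0.36, −0.34, 0.34, 0.08 and 0.06, and in NMBA rats 1.1, 0.72, 0.92, 0.12 and 0.39. It was −0.39, −0.44, −0.13, −1.06 and −0.34 in alpha, 0.51, 0.07, −0.16, −0.14 and −0.27 in delta and −0.14, −0.48, −1.66, 0.24 and 0.15 in gamma-enriched rats. Alpha rats lay below all NMBA rats. Gbp2 fell by 1.12 in alpha (adjusted p = 0.0275) and 1.03 in gamma-enriched (0.0234), and stood at −0.65 in delta without passing.

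Lgals3bp in Control rats was −0.32, −0.75, −0.03, −0.42 and −0.38, and in NMBA rats 0.89, 0.40, 0.45, 0.13 and 0.64. It was −0.28, −0.27, −0.57, −1.50 and −0.05 in alpha, 0.06, −0.78, −0.01, −0.69 and −0.59 in delta and −0.58, −0.24, −1.49, −0.19 and −0.54 in gamma-enriched rats. All tocopherol rats lay below all NMBA rats, and Lgals3bp fell by 1.03 in alpha (adjusted p = 0.0287) and 1.11 in gamma-enriched (0.0107 by limma). Bst2 fell by 0.70, 0.66 and 0.87 in alpha, delta and gamma-enriched (adjusted p = 0.0221, 0.0402 and 0.00416 by limma). Adar fell by 0.72 in alpha, and Sp100, a nuclear body protein, and Ifi27 fell by 0.71 and 0.71 in the gamma-enriched group. Ifit2, which binds viral RNA, had higher means than in NMBA rats, by 0.13, 0.41 and 0.61 ± 0.25 (adjusted p in gamma-enriched = 0.117 by limma). Oasl differed by −0.20, 0.036 and 0.10, with an SE of 0.51.

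Members with no call in these comparisons still mostly had lower means. Usp18, the remover of Isg15, differed by −1.05, −1.05 and −0.94 in alpha, delta and gamma-enriched, and Mx1 by −0.85, −1.05 and −0.90. The GTPases Ifi47 (−1.01, −0.91 and −0.80) and Igtp (−0.95, −0.94 and −0.55) did the same. A second Igtp probe gave −1.36, −1.34 and −1.49, and it passed in gamma-enriched (adjusted p = 0.0242 by limma over all kept probes). Samhd1, which depletes nucleotides, differed by −0.80, −0.79 and −0.58, and Parp14 by −0.71, −0.71 and −0.67. Second probes gave −0.037 for Parp14 and 0.22 for Eif2ak2 in alpha, where the probe used for Eif2ak2 gave −0.48. Smaller values were found for Mx2 (−0.15, −0.17 and −0.18), the sensor Ifih1 (−0.17, −0.15 and −0.41) and Socs1 (−0.04, −0.29 and −0.46), and the sign for Socs1 in alpha turned under normexp background correction (0.17) and without alpha rat 4 (0.10).

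**Figure D4:**
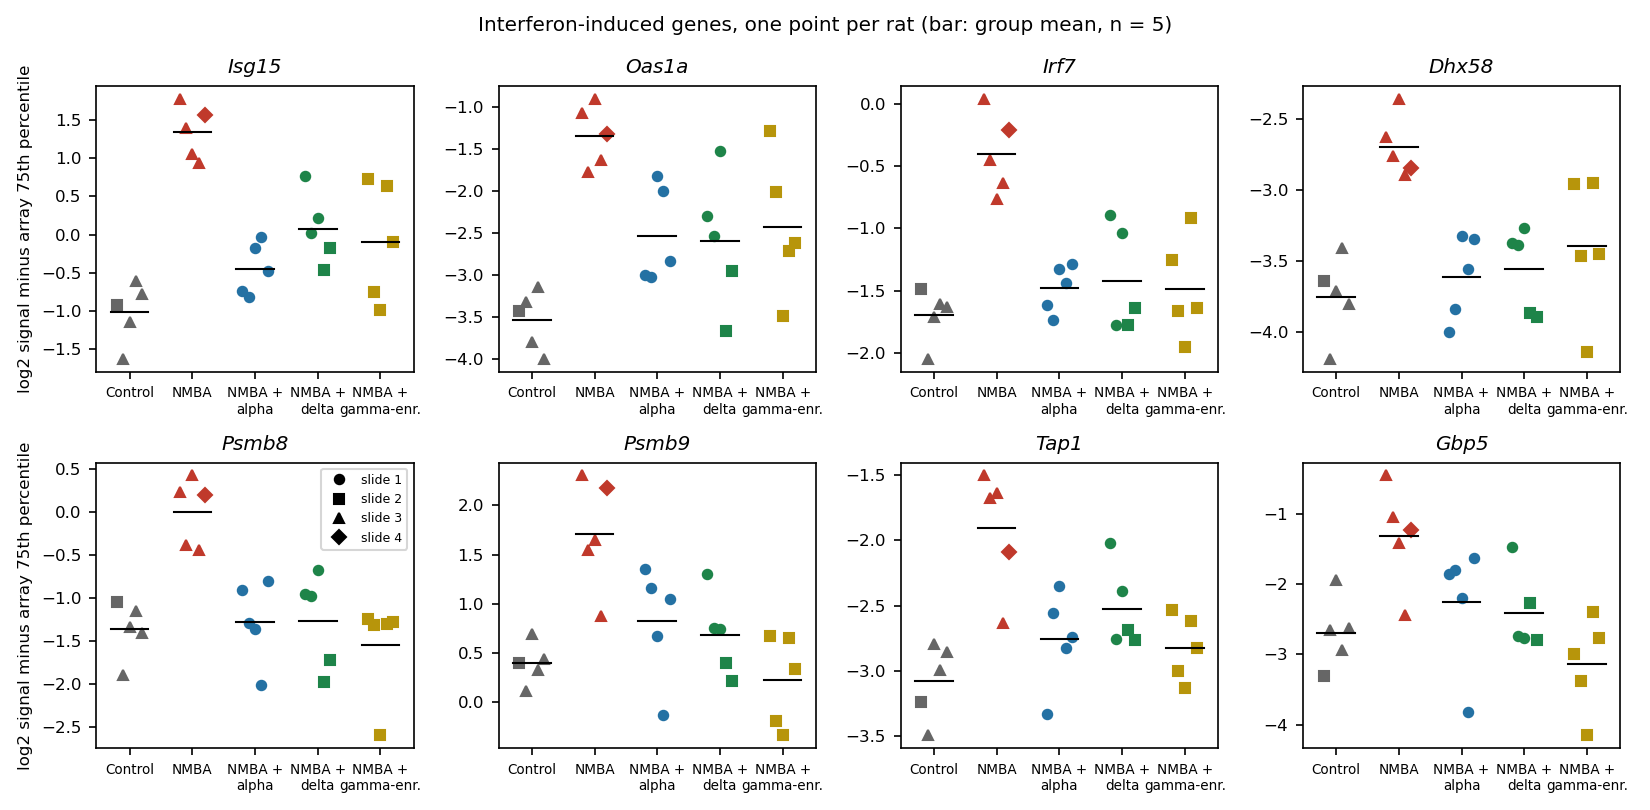
Log2 signal minus the 75th percentile of the array for 8 members, with 1 point per rat, the bar at the group mean (5 rats) and point shape giving the slide. NMBA rats lie above all Control rats in each panel except Gbp5, where NMBA rat 4 lies in the Control range.

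Slide and group are nearly inseparable in these comparisons, which are linked only through Control rat 1 and the delta rats. With slide as a fixed block, 0 members were called in each tocopherol comparison, and 1 gene in all was. The SE of Isg15 grew from 0.30 to 0.76, 0.67 and 0.62, and its differences were −2.53, −1.74 and −1.51. Some differences were nearer 0 than without the block, among them those of Stat2 (−0.28, −0.41 and −0.39) and of Irf1 in delta (−0.81). The medians over 41 members were −1.03, −0.75 and −0.70, with 36, 38 and 37 of 41 negative, beside 0.12, 0.08 and 0.02 over all genes. The calls also leaned on single rats, among the members and over all genes alike. With 1 rat left out, the alpha comparison had 5 calls (alpha rat 4 omitted), 6 (NMBA rat 1 omitted) or 7 (NMBA rat 2 or NMBA rat 3 omitted). In that order its calls over all genes were 282, 271, 237 and 191, beside 457 with every rat. The delta comparison had 0 calls with NMBA rat 1 or NMBA rat 2 omitted, 1 with NMBA rat 3 or delta rat 2 omitted, and 2 with delta rat 4 or delta rat 5 omitted. It had 11 with delta rat 1 omitted and 13 with NMBA rat 4 omitted. In the order named, its calls over all genes were 23, 16, 13, 32, 158, 156, 384 and 566, beside 307 with every rat. The gamma-enriched comparison had 9 when any of gamma-enriched rat 2, NMBA rat 1 and NMBA rat 2 was omitted, and 10 for NMBA rat 3. In that order its calls over all genes were 608, 546, 607 and 752, beside 1103 with every rat.

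Outside the list, Irgm fell by 0.98, 1.01 and 0.95 in alpha, delta and gamma-enriched, with every rat below every NMBA rat. Of 21 other interferon-induced genes, 2, 2 and 8 fell. These and the counts of falls below stand beside 2.45%, 2.02% and 7.35% of all genes called lower in alpha, delta and gamma-enriched. Those that fell in the gamma-enriched group included the class I light chain B2m (−0.78 ± 0.18) and Rtp4 (−1.41 ± 0.37). The Janus kinase inhibitor Socs3 fell by 1.66 ± 0.32 in alpha (adjusted p = 0.00661 by limma), Ifngr1, a receptor chain, by 0.47 ± 0.11 in delta, and the adaptor Sting1 by 1.06 ± 0.29 in gamma-enriched. Ifnb1 differed by −1.24 ± 0.27 in gamma-enriched (adjusted p = 0.00739), though it was above background on only 2 of 5 arrays in each of those groups. T and NK cell markers fell in 7, 8 and 10 of 13 genes, with medians of −1.56, −1.44 and −1.68, and their score ran from −0.89 to 0.31, −0.97 to 0.41 and −1.28 to 0.06. Of 8 squamous markers 1, 1 and 4 fell, the last being Krt14, Krt4, Krt13 and Perp. Of the other lists, Cd74, an antigen-presenting cell marker, fell in each group, by 0.76, 0.94 and 1.06, and Clec9a differed by −1.36, −1.38 and −1.89 without passing. In gamma-enriched the B cell marker Cd79b fell by 1.94 ± 0.36, though only 8 arrays of all groups had its probe above background. The fibroblast marker Dcn fell by 0.74 ± 0.22 in that group. In delta the muscle marker Myh3 rose by 2.66 ± 0.70 (adjusted p = 0.0468 by limma). The part of these markers in the members' differences was not tested.

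Against Control, the tocopherol groups had 0 members called in each comparison by limma, where 0.818%, 0.194% and 0.632% of all genes were called in either direction for alpha, delta and gamma-enriched. At an unadjusted p under 0.05 there were 4, 5 and 5, of which 3, 3 and 4 were higher and 1, 2 and 1 lower. The share of all genes at that cutoff was not counted. The median member differed by 0.07, 0.10 and −0.03, beside 0.01, −0.03 and −0.06 over all genes. Groups lay apart only for Oas1a in alpha and for Isg15 and Tap1 in delta, beside 2.46% and 1.9% of genes, and for 0 members in gamma-enriched, beside 1.73%. The largest values were those of the members that had risen most in NMBA rats. All comparisons with Control share the 5 Control rats, so a low Control mean raises them together and this agreement is partly built in. Isg15 differed from Control by 0.57 (95% interval −0.05 to 1.19), 1.09 (0.47 to 1.71) and 0.93 (0.31 to 1.55). Oas1a differed by 1.0 (0.24 to 1.77), 0.95 (0.18 to 1.71) and 1.12 (0.35 to 1.88). The smallest adjusted p over all members was 0.211, 0.133 and 0.131 in the 3 comparisons, and missing the threshold does not show equal levels. Intervals lay within 1 log2 unit on both sides of 0 for 32, 34 and 34 of 41 members.

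**Figure D5:**
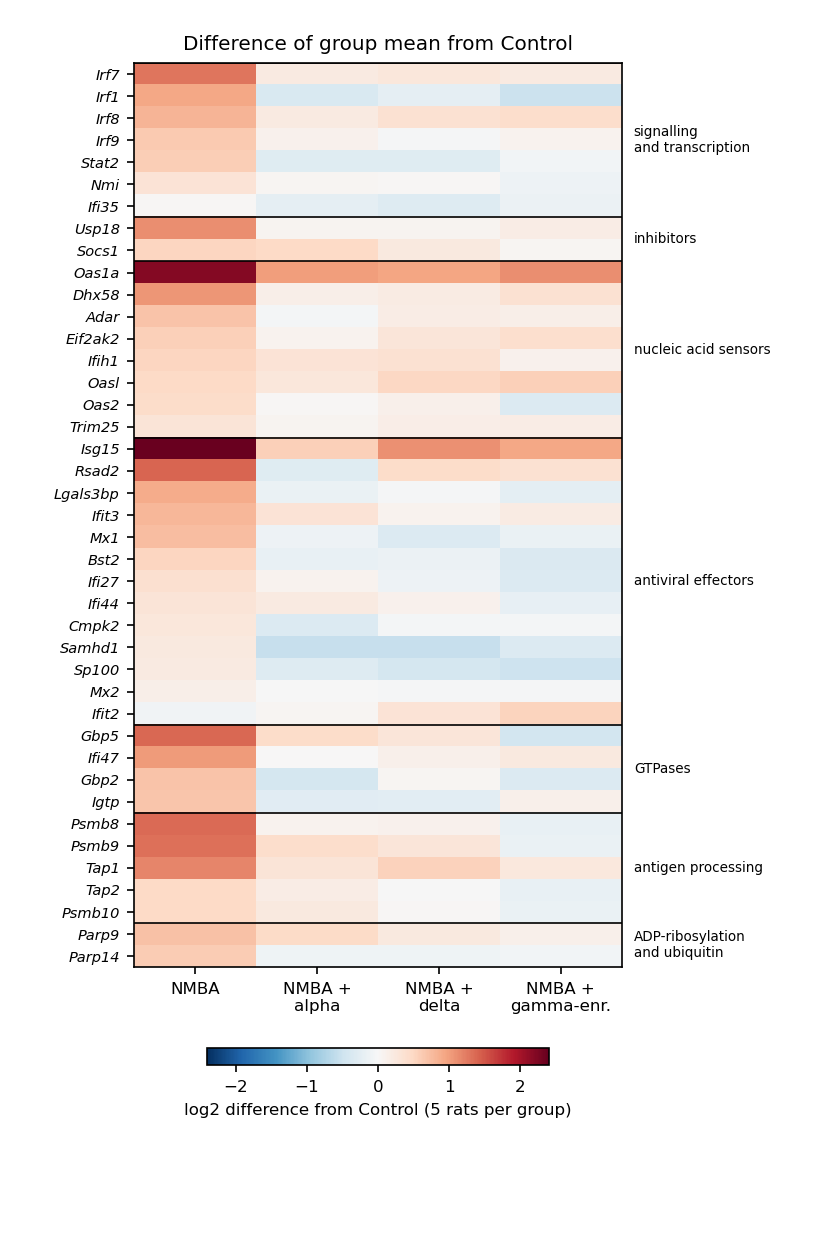
Difference of each group mean from the Control mean, in log2 units, for the 41 tested members (rows, sorted within role by the NMBA difference) and the 4 groups that received NMBA (columns), with 5 rats per group. The NMBA column is red for nearly all members, while in the tocopherol columns Oas1a and Isg15 keep the highest differences.

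The tocopherol preparations were also set against each other, at doses that the labels do not state, over 3 pairs. Of 41 members 0 were called in each pair by limma, with p-values adjusted within a pair or over all 3 pairs together, beside 0% of all genes for delta against alpha, 1.62% for gamma-enriched against alpha and 0% for gamma-enriched against delta. At an unadjusted p under 0.05 there were 0, 3 and 0, and the share of all genes at that cutoff was not counted. The 3 were Gbp5 (−0.88, 95% interval −1.73 to −0.03), Psmb9 (−0.60, −1.19 to −0.01) and Socs1 (−0.42, −0.83 to −0.01), lower in gamma-enriched than in alpha. Between delta and alpha the largest difference was in Rsad2 (0.74, −0.09 to 1.56). The smallest p adjusted over the 3 pairs was 0.691, 0.619 and 0.708. Intervals lay within 1 log2 unit on both sides of 0 for 35, 36 and 37 members, and for the rest the interval reached further. Within slide 1, delta minus alpha had a median of 0.18, and within slide 2, gamma-enriched minus delta a median of 0.03, both with 0 calls. Without alpha rat 4, 1 member was called in gamma-enriched against alpha, namely Gbp5 (−1.27 ± 0.37, adjusted p = 0.0499 by limma). In that fit 556 of all genes were called, beside 200 with every rat. The omitted rat had the lowest Gbp5 level of its group (−3.81), so leaving it out widens this difference.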

How the data were processed

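Total RNA of esophageal epithelium was measured on 1-colour Agilent arrays, 1 per rat. The array files hold fluorescence intensity that was background-subtracted within each array, per the file headers. Feature Extraction is version 11.5.1.1 per the file headers and 10.7 per the submitters' processing notes. The authors also deposited a log2 value table of 30507 probes; its columns followed the log2 processed signals (r of 1 as rounded, 75th percentile −0.001 to 0.002, medians −3.349 to −3.004), and it served as an alternative.

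Spots called outliers by the scanner software and control spots were left out, log2 processed signals of a probe were averaged, and each array's 75th percentile was subtracted. Of 30367 probes, 18355 were given 1 symbol by RefSeq accession, 12012 had none and 0 had more; 70 were left out for missing spots. Each gene took the probe with the highest mean among those well above background on at least 5 arrays. Group means of all 25 arrays were fitted with limma 3.58.1 in R 4.3.3 (20 residual degrees of freedom), and two-sided tests of 10 contrasts were adjusted by Benjamini-Hochberg over 12343 genes, with a threshold of 0.05. The fit was also run on simulated data with independent genes, no slide effect and a shift in the NMBA group only. That run cannot speak to the slides or to shifts that genes share. Each p-value measures the spread between these rats.

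The members, the role, pathway and marker lists and the tests were chosen with earlier results of these data known. Values in every rat are given for members called in NMBA against Control and for the 6 others with the largest difference among those called against NMBA; the naming rule adds up to 3 per role by their NMBA difference. The other members are named as well, so that all 46 are accounted for, and that addition was made after their values were seen. Alternatives were normexp (offset 50, on the median spot signal, since the files hold no mean), quantile normalization, other filters, slide and rat-number blocks, the mean over probes, the deposited table, spots kept, fits of only 2 groups and leaving out each rat. Leaving out NMBA rats 2 and 3 together was chosen after seeing the data. Promoter windows come from RefSeq (GRCr8) and were found by the members' gene symbols. Array probes were given their symbols through RefSeq accessions, and no array coordinates were used. The pathway list's transcription factors are not reported here.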

Additional observations from a re-analysis of the deposited data

Results flagged for a closer look

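In 6 of 105 sets of 5 rats (the members named by the rule and the mean over all 41 members, in each group), 1 rat lay far from the rest. Chance gives about 1 in 20 such sets, or 5.2 here. Gamma-enriched rat 3 was the lowest of its group for Psmb8 at −2.60 (others −1.32 to −1.25), for Parp14 at −2.09 (others −1.14 to −0.77) and for Usp18 at −4.00 (others −2.84 to −2.54). The same rat was the lowest of its group in 24 of 41 members. Alpha rat 4 was the lowest for Gbp5 at −3.81 (others −2.19 to −1.63), and alpha rat 5 the highest for Ifi47 at −2.98 (others −3.86 to −3.65). Gamma-enriched rat 2 was the lowest for Stat2 at −0.16 (others 0.26 to 0.42).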

How the results depend on the processing

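Of 1780 recomputed values of named members, 1560 kept direction and side of the threshold, 154 lost a call, 62 gained one and 4 changed sign. The sign changes were those of Socs1 in alpha against NMBA (main value −0.04): 0.17 with normexp, 0.10 without alpha rat 4, 0.09 without NMBA rat 3 (−0.15 to 0.10 over all single rats left out) and 0.036 without NMBA rats 2 and 3. The number of members called in NMBA against Control (7) was 3 within slide 3, 3 without NMBA rats 2 and 3, and 6 to 15 when single rats were left out, the 15 without NMBA rat 4. For alpha against NMBA (12) it was 0 with slide as a fixed block, 6 with only the 2 groups fitted, 2 without NMBA rats 2 and 3, and 5 to 16 without single rats. For delta against NMBA (7) it was 13 with no filter on dim probes, 0 with slide fixed, 13 with slide random, 4 with the replicate block, 2 with only the 2 groups, 0 without NMBA rats 2 and 3, and 0 to 13 without single rats. For gamma-enriched against NMBA (16) it was 0 with slide fixed, 5 without NMBA rats 2 and 3, and 9 to 22 without single rats. Fewer arrays enter the fit when rats are left out. The cause of these shifts, those without NMBA rats 2 and 3 included, was not tested. Gamma-enriched against alpha ranged from 0 to 1, and the other comparisons stayed at 0 without single rats.

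The rat number as a replicate block gave 7, 11, 4 and 13 members called in NMBA against Control and in alpha, delta and gamma-enriched against NMBA. Rats that share a number showed no common tendency to deviate together. The 50 such pairs correlated at a median of −0.0526 (−0.584 to 0.529), against 0.00934 in 200 other pairs. A small effect shared by rats of the same number would not be seen in these medians. Counts over all genes also moved. They were 62 with slide fixed and 95 with 2 groups for NMBA against Control (191), 2141 with no filter, 800 with slide random and 114 with 2 groups for alpha (457), 961, 742 and 71 for delta (307) with 161 under the block, and 3321 with no filter, 691 with probes above background on all 25 arrays and 1804 with slide random for gamma-enriched (1103). Slide fixed gave 1 for each tocopherol group against NMBA. Without NMBA rats 2 and 3, 63 genes were called in NMBA against Control. The same fit gave 22, 0 and 156 for alpha, delta and gamma-enriched against NMBA. NMBA against Control had 297 without NMBA rat 4 and 31 within slide 3. The median of all genes in gamma-enriched against NMBA was −0.10, and −0.04 after quantile normalization. Dim probes limit what can be read of Oasl, Cmpk2, Ifit1, Dtx3l and the ligands.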
